A study of Mus musculus with 8 samples.

Results

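Open chromatin was examined at 46 mouse genes for chemokines, cytokines and their receptors in leukaemia cells before and after induction of the transcription factor Klf4. A peak was counted for a gene when its summit lay in the gene's body or within 20 kb of it on mm10, and 46 of the 21887 genes in the RefSeq table are members. Joining overlapping peaks of the 8 lists (1 bp or more) gave 32730 regions, of which 126 lay at a member. The cells were MLL-AF9 acute myeloid leukaemia cells in which doxycycline switches on Klf4 from the TetO-Klf4 construct, sorted as GFP+ cells out of the marrow of mice with leukaemia. The groups are 0h, 6h, 12h and 24h, with 2 libraries each, and every group carries the MLL-AF9 fusion and the TetO-Klf4 construct. The strain is given under the cell line label as C57BL/7. The labels name neither the transactivator that drives the construct nor its promoter, and do not say whether 0h cells received doxycycline or whether replicates are different mice. All p-values therefore reflect only how far these libraries differ, and that spread may be technical.

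Chemokines are small secreted proteins that guide leukocytes through G protein-coupled receptors. Interleukin 1 and tumour necrosis factor switch on NF-kB and the genes of acute inflammation, interferons signal through JAK kinases and STAT factors, and transforming growth factor beta signals through SMAD factors. In the marrow, the receptor encoded by Cxcr4 is known for holding blood stem cells and leukaemia cells in their niche. In ATAC-seq, a transposase inserts adapters into accessible DNA, so a peak marks a promoter or enhancer that is open in part of the cells and does not measure transcription. In such bulk libraries, fewer cells with an open site and a less open site in every cell cannot be told apart.

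The promoters that carried peaks at the members on which the results turn are shown first, because they include the sites that were open throughout and those that were not. Each sequence runs from 250 bases before to 50 bases after the gene's start, 5′ to 3′ on the gene's own strand, and comes from RefSeq on GRCm38.p6, the assembly that mm10 represents. Capitals mark matches to motifs on either strand. These are CACCC, a core of sites that KLF factors bind, GGGANTT, a part of NF-kB sites, TGANTCA, the AP-1 site, and GGAAGT, an ETS site. The windows of Tgfbr1 (chr4:47352972-47353271, plus strand), Ifngr1 (chr10:19591699-19591998, plus strand), Ifnar1 (chr16:91484965-91485264, plus strand), Tnfrsf1b (chr4:145246821-145247120, minus strand) and Ccl3 (chr11:83649329-83649628, minus strand) held a peak in all 8 libraries. Those of Ifnar2 (chr16:91372533-91372832, plus strand), Tgfbr2 (chr9:116175314-116175613, minus strand) and Tnf (chr17:35201958-35202257, minus strand) were overlapped by a peak in 7, 4 and 4 libraries. For Tgfbr2 this reflects the edge of the window. In the libraries without overlap its peak began 71 to 133 bp after the start, and the Tgfbr2 promoter region was called in all 8 libraries.
Tgfbr1: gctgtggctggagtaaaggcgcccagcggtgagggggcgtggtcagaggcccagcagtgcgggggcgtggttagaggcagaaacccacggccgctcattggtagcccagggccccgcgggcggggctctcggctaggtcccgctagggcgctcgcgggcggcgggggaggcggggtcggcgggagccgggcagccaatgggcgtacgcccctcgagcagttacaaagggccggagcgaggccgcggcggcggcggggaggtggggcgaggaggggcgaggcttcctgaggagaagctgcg
Ifngr1: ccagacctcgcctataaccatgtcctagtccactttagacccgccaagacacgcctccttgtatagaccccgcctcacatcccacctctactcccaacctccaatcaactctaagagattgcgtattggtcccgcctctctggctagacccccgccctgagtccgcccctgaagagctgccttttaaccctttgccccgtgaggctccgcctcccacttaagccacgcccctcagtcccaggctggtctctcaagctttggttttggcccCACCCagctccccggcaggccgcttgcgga
Ifnar1: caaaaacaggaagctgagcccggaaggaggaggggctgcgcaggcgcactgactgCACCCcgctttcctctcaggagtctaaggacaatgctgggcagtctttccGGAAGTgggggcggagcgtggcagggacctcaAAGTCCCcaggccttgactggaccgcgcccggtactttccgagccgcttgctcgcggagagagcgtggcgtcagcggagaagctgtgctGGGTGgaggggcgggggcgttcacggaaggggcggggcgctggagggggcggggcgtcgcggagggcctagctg
Tnfrsf1b: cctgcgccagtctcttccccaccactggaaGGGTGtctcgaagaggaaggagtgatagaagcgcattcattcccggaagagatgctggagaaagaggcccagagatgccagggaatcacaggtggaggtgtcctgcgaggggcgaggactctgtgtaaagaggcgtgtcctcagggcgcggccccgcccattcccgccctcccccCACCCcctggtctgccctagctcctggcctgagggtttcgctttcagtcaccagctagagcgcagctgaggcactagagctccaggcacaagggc
Ccl3: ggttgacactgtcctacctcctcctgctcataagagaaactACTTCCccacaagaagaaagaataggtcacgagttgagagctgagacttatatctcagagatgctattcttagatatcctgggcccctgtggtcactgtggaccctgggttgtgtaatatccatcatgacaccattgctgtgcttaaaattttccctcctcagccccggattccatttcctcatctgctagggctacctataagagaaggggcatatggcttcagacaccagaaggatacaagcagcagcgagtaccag
Ifnar2: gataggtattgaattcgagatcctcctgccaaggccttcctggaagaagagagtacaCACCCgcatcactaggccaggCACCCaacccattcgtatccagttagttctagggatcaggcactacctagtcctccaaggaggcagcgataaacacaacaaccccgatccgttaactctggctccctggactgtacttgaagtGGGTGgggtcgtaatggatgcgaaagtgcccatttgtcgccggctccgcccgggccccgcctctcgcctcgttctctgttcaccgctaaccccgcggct
Tgfbr2: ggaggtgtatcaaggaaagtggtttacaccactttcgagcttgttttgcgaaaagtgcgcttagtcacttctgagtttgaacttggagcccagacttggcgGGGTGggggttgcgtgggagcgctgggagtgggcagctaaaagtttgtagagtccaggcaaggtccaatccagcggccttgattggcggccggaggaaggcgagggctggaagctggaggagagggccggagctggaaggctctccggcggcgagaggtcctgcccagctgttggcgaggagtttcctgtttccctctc
Tnf: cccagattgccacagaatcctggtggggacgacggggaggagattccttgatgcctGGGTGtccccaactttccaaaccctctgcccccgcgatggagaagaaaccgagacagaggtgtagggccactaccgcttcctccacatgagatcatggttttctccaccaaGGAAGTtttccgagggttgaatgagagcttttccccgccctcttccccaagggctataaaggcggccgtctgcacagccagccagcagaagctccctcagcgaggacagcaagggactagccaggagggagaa

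The sequence table held 43 promoters of 35 members. A peak overlapped a promoter window in all 8 libraries for 6 members, which were Cxcr4 and the first 5 genes printed above, in some libraries for 12 members and in none for 17. Tgfbr2 is among the 12 only because some of its peaks begin past the window. Windows with a peak in every library had a median GC content of 61.5% (48% to 74.7%, 6 promoters), against 50.3% (36.7% to 63.3%, 22 promoters) for those without a peak in any library. CACCC was found in 28 of the 43 promoters (65.1%), against 57.5% of all 32851 promoters of the table. GGGANTT was found in 14 (32.6%, against 16.5%), TGANTCA in 6 (14.0%, against 7.81%) and GGAAGT in 13 (30.2%, against 23.8%). A match of letters is a description of the window and shows no bound factor. None of the 4 motifs was found in the printed Tgfbr1 window, which was open in every library, whereas 3 matches to CACCC lie in that of Ifnar2. Other forms of these factors' sites were not searched, so a window without a match may still hold such a site.

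Before the values, 1 feature of the libraries bears on all counts. The lists held 21763, 15641, 17328, 18074, 21903, 19728, 15109 and 14826 peaks in the order 0h replicates 1 and 2, 6h replicates 1 and 2, 12h replicates 1 and 2, and 24h replicates 1 and 2, an order used for all further values in every library. Both 24h lists were the shortest, and 0h replicate 2 stood apart with a median peak width of 282 bp (370 bp to 460 bp in the others) and a median of 10 tags at the summit (14 to 16 in the others). A longer list yields more peaks at almost any gene, so counts are also given on lists cut to their strongest 14826 peaks by -log10 p, called equal length below. A gained region has a peak in both libraries of a later time and in no 0h library, and a lost one the reverse. A shared region has a peak in all 8 libraries. No source used here gives the read depth per library. A list of 12 myeloid and leukaemia genes had peaks at 10 to 12 of its genes in every library. Markers of other cells had peaks too. Of 10 T and NK genes 6 to 8 had a peak (Cd8a and Ncr1 in no library). Of 8 B lineage genes 2 to 7 had one (Ms4a1 in none), and of 8 neutrophil genes 4 to 7. Of 8 eosinophil, basophil and mast genes 1 to 4 had one (Fcer1a, Ms4a2 and Prss34 in none). Of 8 stroma and endothelium genes 1 to 6 had one (Kdr and Col1a2 in none). By the same 20 kb rule, 61.9% to 68.3% of all genes had a peak in a library, so a peak at a marker does not set it apart from most genes. On the lists as deposited, marker genes with a peak were fewest at 24h for the B lineage (3 and 2) and for stroma and endothelium (1 and 2). These markers were not counted at equal length, and the part of such cells in the results was not tested.

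Peaks at members numbered 80, 62, 62, 74, 85, 76, 60 and 57. Both 12h libraries were above both 24h libraries, and both 0h libraries were above both 24h libraries and below 12h replicate 1. The 0h libraries averaged 71.0 ± 12.7 peaks, those of 6h 68.0 ± 8.49, those of 12h 80.5 ± 6.36 and those of 24h 58.5 ± 2.12 (SD, n = 2 each). As a share of each list, member peaks made up 0.368%, 0.396%, 0.358%, 0.409%, 0.388%, 0.385%, 0.397% and 0.384%, and the 95% Wilson interval of every library, which covers counting error only, overlapped that of every other (the lowest bound was 0.279% and the highest 0.514%). At equal length the counts were 51, 58, 54, 55, 54, 56, 59 and 57, so the low number at 24h was not seen on lists of one length. Members with at least 1 peak numbered 38, 33, 34, 35, 41, 39, 33 and 30, and at equal length 30, 33, 33, 31, 31, 35, 33 and 30.

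**Figure D1:**
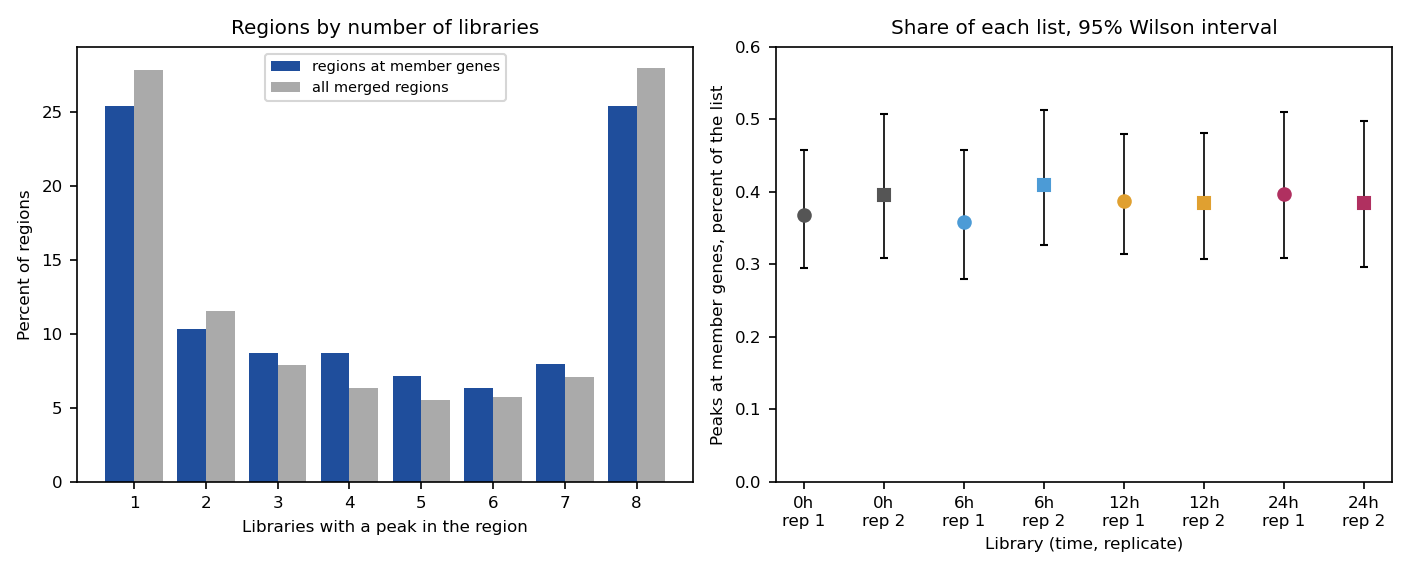
Left: percent of merged regions (y axis) by the number of libraries with a peak in them (x axis), for the 126 regions at member genes and for all 32730 regions. Right: peaks at member genes as a percent of each library's list with 95% Wilson intervals; the 8 shares lie between 0.358% and 0.409% and all intervals overlap.

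Regions at members were shared between libraries about as often as regions elsewhere. Of the 126, 32 had a peak in all 8 libraries (25.4%, Wilson interval 18.6% to 33.6%), against 28.0% of all regions, and 32 were called in a single library (25.4%), against 27.9% of all regions. At least 1 region was found at 41 of the 46 members (89.1%), against 73.2% of all genes. Ccl5, Ccl22, Cxcr6, Ccr9 and Il6 had no peak in any library. A region shared by all 8 libraries lay at 20 members (43.5%), against 52.2% of all genes. Neighbouring members share regions: Tnf and Lta have the same 6, Ccl3 and Ccl4, whose annotated bodies overlap, have the same 5, Ccl6 and Ccl9 share 5, Cxcl1 and Cxcl2 share 2, and Ccl2 and Ccl7 share 1. Such pairs count the same peaks and are not independent. Of the 126 regions, 41 had their strongest summit inside a member and 98 had a member's end as the nearest gene end. Whether a site inside a gene lies in an exon or an intron was not determined here.

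The 20 kb limit cuts through 1 region. At Ifnar1, which encodes a chain of the type I interferon receptor, summits of one region upstream of the gene lay 19981 bp (12h replicate 2) and 19995 bp (6h replicate 2) away, with folds over background of 10.7 and 15.0, and were counted. Summits of the same region lay 20009, 20012, 20022, 20100 and 20108 bp away in 12h replicate 1, 6h replicate 1, 24h replicate 1, 0h replicate 1 and 0h replicate 2, with folds of 12.1, 11.5, 11.1, 9.21 and 10.4, and were not. The fold is the authors' value for each peak, used here to rank peaks within a list.

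**Figure D2:**
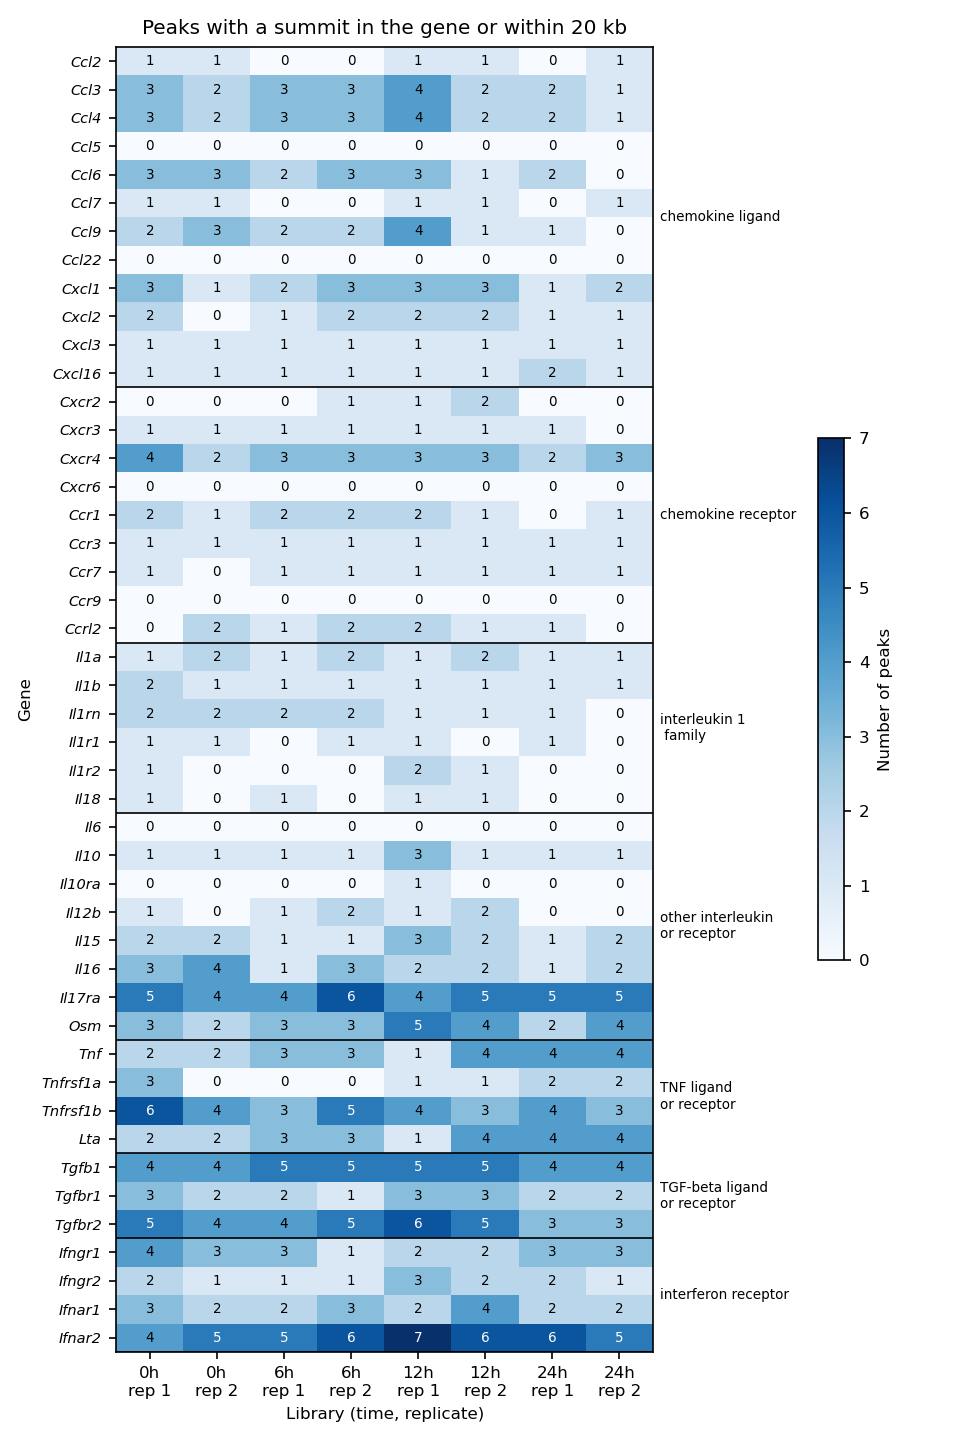
Number of peaks (colour and digit) with a summit in the gene or within 20 kb, for each of the 46 members (rows, grouped by role) in each of the 8 libraries (columns, by time and replicate). Ifnar2, Il17ra, Tnfrsf1b and Tgfbr2 reach 6 or 7 peaks in a library, and 5 rows hold 0 throughout.

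Among the 12 chemokine ligands, 10 had a region and 4 a shared one. Together they had 12, 9, 9, 11, 14, 9, 8 and 6 peaks. Cxcl16, whose product exists as a membrane protein and as a soluble attractant of cells with the Cxcr6 receptor, had 1 peak in every library but 24h replicate 1, which had 2. Its strongest peak stood at the percentiles 79.9, 72.4, 87.0, 80.4, 85.3, 88.0, 88.3 and 86.3 of its list by fold. That shared region (chr11:70451731-70452388) lies in Med11, 208 bp from an end of that gene, so its place among the highest ranked members rests on a peak at another gene. Ccl3 and Ccl4, which encode inflammatory chemokines made by myeloid cells, had 3, 2, 3, 3, 4, 2, 2 and 1 peaks. The Ccl3 promoter region (chr11:83649229-83649838) was called in all 8 libraries and stood low among the 9170 shared regions, at a mean rank of 18.5 on a scale of percentiles of fold over those regions.

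A second Ccl3 and Ccl4 region (chr11:83639719-83640643), 7508 bp beyond the end of Ccl3, was called in every library but the 24h ones. It was absent from both 24h lists, against folds of 6.74 and 6.06 at 0h, with 4.18 and 5.25 at 6h and 7.46 and 8.92 at 12h. It was also a lost region at 24h at equal length, and at equal length it was lost at 6h as well. The summits held 13, 7, 5, 8, 15 and 15 tags in the 6 libraries with the peak, where a peak of 5 tags is among the weakest in a list. Ccl6 and Ccl9, which also encode mouse CC chemokines, had 3, 3, 2, 3, 3, 1, 2 and 0 and 2, 3, 2, 2, 4, 1, 1 and 0 peaks. Neither gene had a peak in 24h replicate 2. Their region at chr11:83571822-83572574, 931 bp from an end of Ccl9, was gained at 6h, with folds of 6.69 and 6.21 in both 6h libraries against no peak at 0h, and it was called in 1 of the 12h libraries (6.54) and in neither 24h library. Ccl2 and Ccl7, which attract monocytes, had 1, 1, 0, 0, 1, 1, 0 and 1 peaks, all in one region (chr11:82041697-82042045), 3957 bp from an end of Ccl7. It was absent at 6h, against folds of 5.39 and 5.72 at 0h, and was called again at 12h (5.94 and 8.06). This loss at 6h was not called at equal length. Cxcl1, Cxcl2 and Cxcl3, neighbouring genes for neutrophil attractants, had 1 to 3, 0 to 2 and 1 peak per library, and the region of Cxcl3 (chr5:90789348-90790236), 1748 bp from the gene, was shared by all libraries at a low mean rank of 8.88.

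Of the 9 chemokine receptors, 7 had a region and 2, Cxcr4 and Ccr3, a shared one. The group had 9, 7, 9, 11, 11, 10, 6 and 6 peaks. Cxcr4 had 4, 2, 3, 3, 3, 3, 2 and 3. Its promoter region (chr1:128591836-128592705) was called throughout. Ccrl2, which encodes an atypical receptor that binds chemerin without signalling like a chemokine receptor, had 0, 2, 1, 2, 2, 1, 1 and 0 peaks. A Ccrl2 region (chr9:111046019-111046588) was gained at 6h and at 12h, with folds of 9.32 and 6.02 at 6h and 7.81 and 9.62 at 12h, against no peak at 0h. It was absent again at 24h, and the nearest gene end, 3644 bp away, is that of Ltf, which encodes the neutrophil granule protein lactoferrin. Cxcr2, the receptor of neutrophil attractants such as Cxcl1 and Cxcl2, had 0, 0, 0, 1, 1, 2, 0 and 0 peaks. The gained region at 12h (chr1:74178667-74178912, folds of 5.40 and 6.53 against no peak at 0h) was also called in 6h replicate 2 (7.05). It lies 12996 bp from the related receptor gene Cxcr1 and was not called gained at equal length. Ccr3 had 1 peak in every library, Ccr1 0 to 2, and Cxcr3 and Ccr7 1 in 7 of the 8 libraries each.

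All 6 genes of the interleukin 1 family had a region, and 2 of them, Il1a and Il1b, a shared one. The family's peaks numbered 8, 6, 5, 6, 7, 6, 4 and 2. Il1a, which encodes an interleukin 1 agonist, had 1, 2, 1, 2, 1, 2, 1 and 1 peaks, with the strongest at the percentiles 98.4, 88.5, 78.9, 83.1, 97.4, 92.9, 94.3 and 92.4. As with Cxcl16, that region (chr2:129296960-129297710) lies at another gene, 79 bp from an end of Ckap2l. The Il1a promoter itself held no peak in any library. Il1rn, which encodes the natural antagonist of interleukin 1, had 2, 2, 2, 2, 1, 1, 1 and 0 peaks. Both 0h and both 6h libraries were above all 12h and 24h ones. The correlation of the number of Il1rn peaks with hours was r = -0.88 (exact permutation test over all arrangements of the libraries, p = 0.00714, adjusted p = 1), with Spearman's rho of -0.91 (exact permutation p = 0.0143). Without the 24h libraries it was r = -0.87 (exact permutation p = 0.133). At equal length the Il1rn counts were 0, 2, 0, 0, 0, 0, 1 and 0 (r = -0.15, exact permutation p = 0.821, and rho = -0.10, p = 0.857). Its lost region at 12h (chr2:24318093-24318517), 18509 bp from the gene, had folds of 5.59 and 4.84 at 0h, 5.55 and 5.64 at 6h and 6.11 in 24h replicate 1. This loss at 12h was not called at equal length. Il1r1, the signalling receptor, had 1, 1, 0, 1, 1, 0, 1 and 0 peaks. Its region inside the gene (chr1:40271095-40271427), absent at 6h, had folds of 6.69 and 6.32 at 0h. It was called in 1 library each at 12h (4.65) and 24h (5.69), and was not called lost at equal length. Il1b had 1 or 2 peaks per library, Il1r2, the decoy receptor, 0 to 2, and Il18 0 or 1.

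Among the 8 other interleukins and receptors, 7 had a region and 5 a shared one. Their peaks numbered 15, 13, 11, 16, 19, 16, 10 and 14. Il17ra, the subunit common to interleukin 17 receptors, had 5, 4, 4, 6, 4, 5, 5 and 5 peaks in 5 regions, of which 4 were shared by all libraries. Its strongest peak stood at the percentiles 92.5, 73.4, 77.5, 71.6, 90.5, 90.1, 82.5 and 77.2, and 3 of the shared regions lie inside the gene. Osm, which encodes oncostatin M, a cytokine of the interleukin 6 family, had 3, 2, 3, 3, 5, 4, 2 and 4 peaks. An Osm region (chr11:4232680-4232965), 3872 bp from the gene, was gained at 12h with folds of 5.09 and 5.57 against no peak at 0h. It was called again in 24h replicate 2 (5.61) and also counted as gained at 12h at equal length. Il16, Il15 and Il10 had a peak in every library, with 1 to 4, 1 to 3 and 1 to 3, and Il12b had 0 to 2. Il10ra had a single peak in 12h replicate 1.

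The 4 genes of the TNF group had 11, 6, 6, 8, 6, 8, 10 and 9 peaks. Tnf, the inflammatory cytokine, and Lta, its neighbour lymphotoxin alpha, had 2, 2, 3, 3, 1, 4, 4 and 4. Both 24h libraries had 4 peaks, against 2 in both 0h libraries, but the 12h libraries had 1 and 4. The counts correlated with hours at r = 0.62 (exact permutation p = 0.119, adjusted p = 1, with Spearman's rho of 0.66, p = 0.10). At equal length, with counts of 0, 2, 2, 3, 1, 2, 4 and 4, the correlation was r = 0.75 (exact permutation p = 0.0476, adjusted p = 0.986, with rho of 0.65, p = 0.0929). Without the 24h libraries r was 0.21 as deposited and 0.22 at equal length, so the relation rests on those libraries. The Tnf promoter window printed above was overlapped by a peak in 0h replicate 2, 12h replicate 2 and both 24h libraries.

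Different regions made up these counts at different times. Inside Tnf, a region (chr17:35200539-35201036) was gained at 6h, with folds of 7.57 and 5.76 against no peak at 0h, was absent at 12h and was called in 24h replicate 2 (5.91). Upstream of Lta, a region (chr17:35219467-35220128), 288 bp from an end of Nfkbil1, was gained at 24h with folds of 7.00 and 5.18 against no peak at 0h. It was also called in 6h replicate 1 (4.67) and 12h replicate 2 (5.52), and was gained at 24h at equal length too. Another region (chr17:35209544-35210233), 4183 bp from Lta, had peaks of 5 tags each in both 0h libraries (folds of 4.02 and 4.95) and was lost at 12h and 24h. The merged region is 690 bp wide, and in the map of this locus the peaks of the 0h libraries stand side by side within it and are joined by the wider peak of 6h replicate 2. At equal length it was not called lost.

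Tnfrsf1b, the second TNF receptor, had 6, 4, 3, 5, 4, 3, 4 and 3 peaks. Its promoter was open throughout, at a low mean rank among the shared regions. The strongest peak of Tnfrsf1b, taken over all its regions, stood at the percentiles 78.0, 62.4, 92.9, 64.5, 96.0, 97.5, 64.6 and 74.6. A region downstream of it (chr4:145200019-145200497) was called at 0h only, with folds of 4.65 and 5.65 on 7 and 6 tags, and so was lost at 6h, 12h and 24h. It lies 5106 bp from an end of Vps13d and was not called lost at equal length. Tnfrsf1a, the first TNF receptor, had 3, 0, 0, 0, 1, 1, 2 and 2 peaks.

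All 3 genes of the TGF-beta group had a shared region and a peak in all 8 libraries, and together they had 12, 10, 11, 11, 14, 13, 9 and 9 peaks. Tgfb1, the ligand, had 4, 4, 5, 5, 5, 5, 4 and 4. Tgfbr1, the type I receptor kinase, had 3, 2, 2, 1, 3, 3, 2 and 2, and its promoter region (chr4:47352897-47353638) was the highest ranked shared region of any member. Its strongest peak stood at the percentiles 89.4, 99.2, 94.9, 85.5, 96.7, 90.2, 93.2 and 96.7 of the lists. A weaker region inside Tgfbr1 (chr4:47400019-47400490) was missing from both 6h libraries, against folds of 7.36 and 5.05 at 0h, and was called in all 12h and 24h libraries (4.94 to 5.38). Tgfbr2, the type II receptor that activates Tgfbr1, had 5, 4, 4, 5, 6, 5, 3 and 3 peaks, and both 24h libraries were below all others. At equal length the counts were 3, 4, 4, 4, 4, 3, 3 and 3, and the 24h libraries no longer stood apart. A region inside Tgfbr2 (chr9:116091249-116092152), 3955 bp from the gene's far end, was in neither 24h library, against folds of 6.49 and 8.51 at 0h, with 8.18 and 8.56 at 6h and 9.52 and 6.36 at 12h. Its summits held 10 to 16 tags in those 6 libraries, and it was a lost region at equal length as well.

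All 4 interferon receptor genes had a peak in every library, with 13, 11, 11, 11, 14, 14, 13 and 11 peaks together. Ifngr1, the ligand-binding chain of the interferon gamma receptor, had 4, 3, 3, 1, 2, 2, 3 and 3. The strongest Ifngr1 peak stood at the percentiles 96.0, 96.4, 87.1, 95.5, 97.5, 82.8, 95.2 and 79.9 and lay at the promoter printed above. Ifnar1 had 3, 2, 2, 3, 2, 4, 2 and 2 peaks, with the strongest at the percentiles 91.7, 96.6, 85.8, 96.9, 86.5, 92.2, 82.1 and 86.0. The value of 96.9 in 6h replicate 2 comes from the region at the 20 kb limit. Ifngr2, the second chain of the interferon gamma receptor, had 1 to 3 peaks per library and no shared region.

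Ifnar2, the other chain of the type I interferon receptor, had the most peaks of any member, 4, 5, 5, 6, 7, 6, 6 and 5. A region inside Ifnar2 (chr16:91403093-91403565), 30573 bp after its start and 2233 bp before its end, was gained at 12h and at 24h. Its folds were 7.05 and 6.37 in the 12h libraries and 6.35 and 5.10 in the 24h libraries, on 19, 16, 13 and 10 tags, against no peak in any 0h or 6h library. Of the regions at members, it was the one called gained at both 12h and 24h, and it was so at equal length too. A second region inside the gene (chr16:91397863-91398356) was called in both 12h libraries alone, with folds of 5.41 and 6.5, and was not called gained at equal length.

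**Figure D3:**
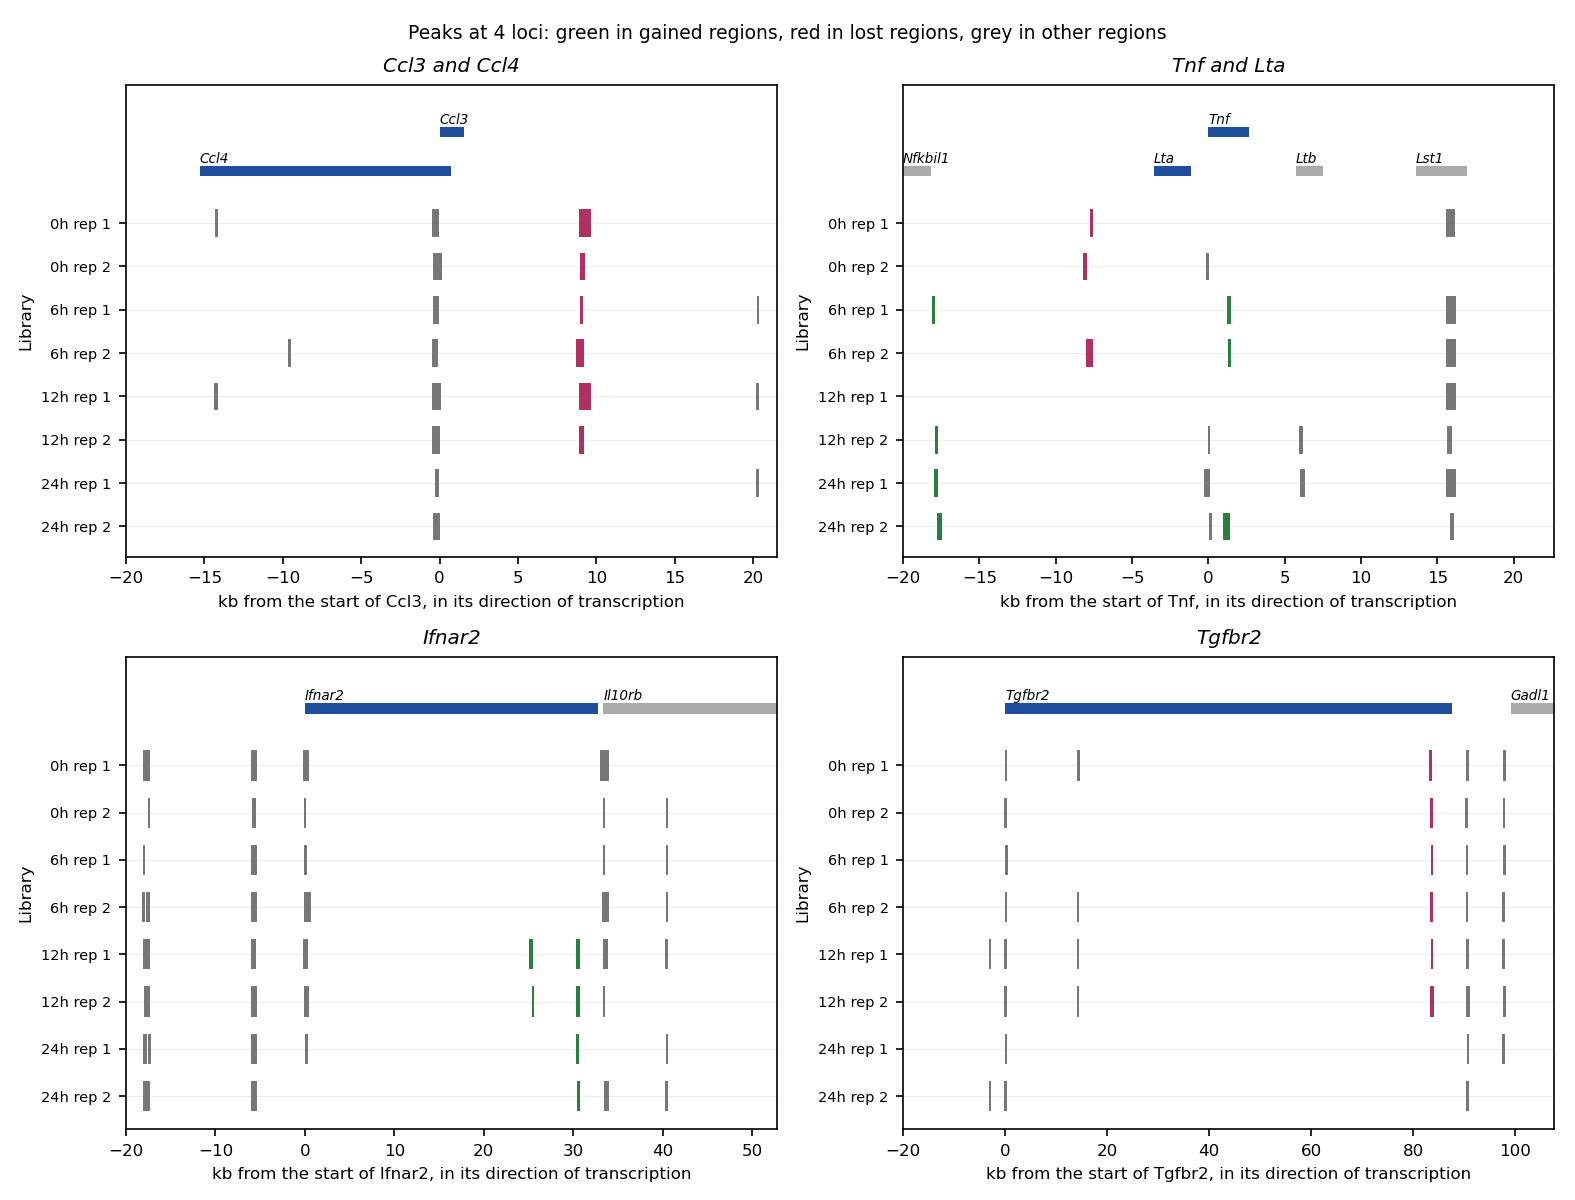
Peaks (bars) of the 8 libraries (rows) at the loci of Ccl3 and Ccl4, Tnf and Lta, Ifnar2, and Tgfbr2, by distance in kb from the start of the gene named under each panel; members are blue and other genes grey at the top, and peaks narrower than the line are drawn at a minimum width. The red column is absent from both 24h libraries at Ccl3 and Ccl4 and at Tgfbr2, and 1 of the green columns at Ifnar2 is present in all 12h and 24h libraries.

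Counted together, the changed regions were few. At 6h, 3 of the 126 member regions were gained (2.38%, against 1.85% of all regions) and 4 were lost (3.17%, against 2.34%). At 12h, 5 were gained (3.97%, against 4.03%) and 3 were lost (2.38%, against 1.45%). At 24h, 2 were gained (1.59%, against 1.12%) and 4 were lost (3.17%, against 4.43%). These shares lay near those of all regions. At equal length, 4, 4 and 4 of 95 member regions were gained at 6h, 12h and 24h (4.21% each, against 2.37%, 2.69% and 2.92%), and 2, 1 and 2 were lost (2.11%, 1.05% and 2.11%, against 2.36%, 2.31% and 3.01%).

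The 16 regions called at any time lay at 17 members. None overlapped a member's promoter window, 6 had their strongest summit inside a member, and for 4 the nearest gene end was that of another gene. Their peaks were mostly weak, with a median of 9 tags at the summit, against 21 in the shared regions at members, and a median fold of 5.94, against 9.45. The gained Osm region was an exception in tags, with 35 and 32 at 12h and 27 in 24h replicate 2, but not in fold. Its folds in these libraries were 5.09, 5.57 and 5.61, at the percentiles 10.4, 14.9 and 14.0 of the lists. Of the 16, 9 had the same call at equal length at 1 time or more. A call needs agreement of both 0h libraries, and without 0h replicate 1, the longer of those lists, 12, 19 and 7 member regions were gained at 6h, 12h and 24h and 14, 11 and 13 were lost. Without 0h replicate 2, 4, 6 and 4 were gained and 17, 14 and 22 were lost. The shares of all regions called with a 0h library left out are not given here. These counts therefore show how the calls depend on the 0h libraries and nothing particular to members.

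**Figure D4:**
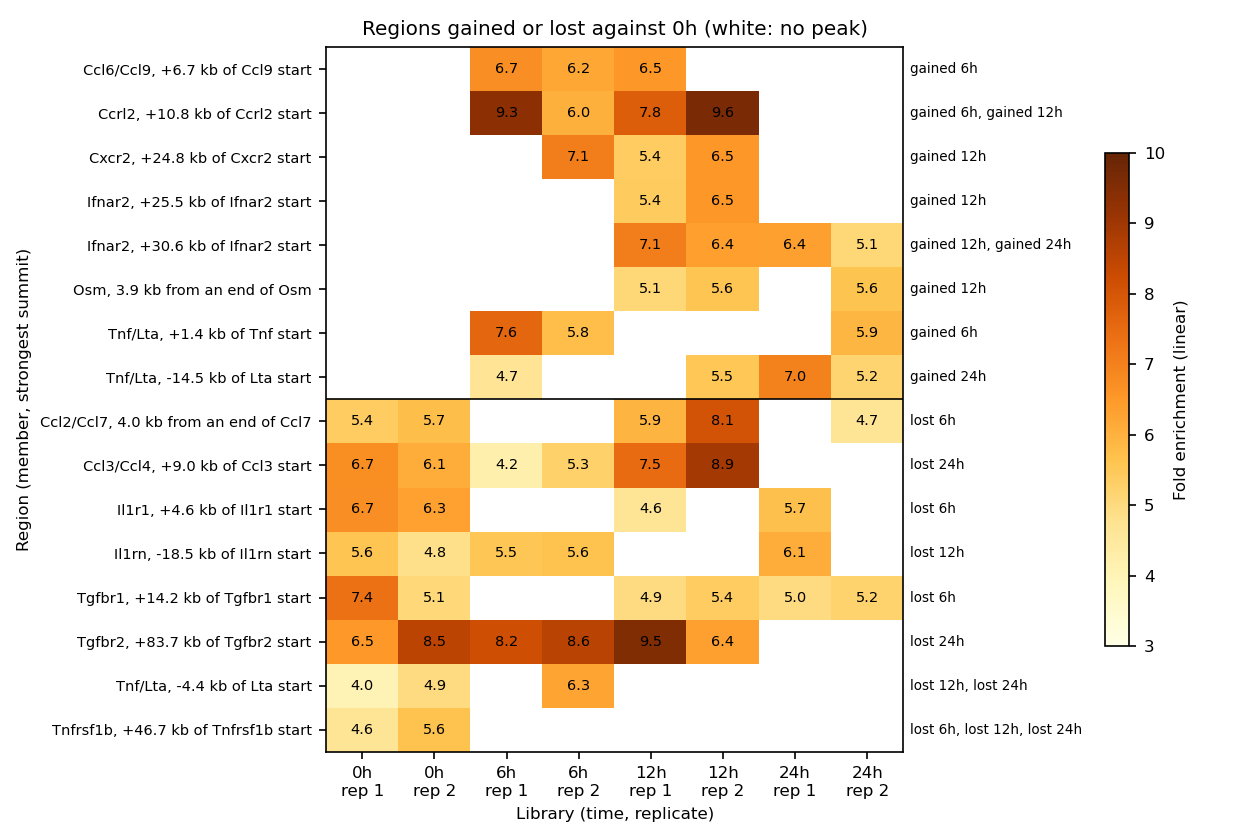
Fold enrichment (colour and number, linear scale) in each of the 8 libraries (columns) of the 16 regions at members that were gained (upper rows) or lost (lower rows) against 0h at any time, with the call at the right; white means no peak. The values lie between 4.02 and 9.62, and 1 row, Tnfrsf1b, is filled at 0h alone.

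The number of peaks per gene was tested against hours for 13348 genes with the exact permutation test. No gene passed at an adjusted p under 0.05 (smallest adjusted p of 1), and 348 (2.61%) had an unadjusted p under 0.05, with no other tool run on these counts. Among the 39 members tested 1, Il1rn, had an unadjusted p under 0.05. At equal length 35 members could be tested, and 2, Tnf and Lta, which share their peaks, had an unadjusted p under 0.05, against 3.7% of all genes. The correlation was negative for 27 members and positive for 12 (median r of -0.17, against -0.19 over all genes), and at equal length negative for 17 and positive for 18 (median 0.04, against 0.04). The lean towards fewer peaks at members with time thus was of the size seen over all genes and was not seen on lists of one length.

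Peak strength was compared over the 9170 regions that all 8 libraries share, by the percentile of fold among those regions, so that every library has the same number of ranks. The 32 shared regions at members had a median mean rank of 37.6, against 50.0 for all, and ranged from 7.44 to 86.5. By place, 8 were within 1 kb of a member's end (median 24.2) and 7 within 1 kb of another gene's end (median 56.6). The other 17 (median 30.9) lay farther than 1 kb from any gene end, which includes sites inside genes. Only 3 regions at member ends stood above rank 80, the promoters of Tgfbr1 (86.5), Ifngr1 (83.9) and Ifnar1 (80.5), and between these 3 the differences were smaller than the median SD between replicates of 9.27. The promoters of Tnfrsf1b (21.4), Ccl3 (18.5), Cxcr4 (12.7) and Tgfbr2 (10.0) stood far lower, although all 4 regions were called in every library.

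Ranks at members were compared with 0h by limma over all shared regions. No region passed an adjusted p under 0.05 at 6h, 12h or 24h, in limma with Benjamini-Hochberg adjustment (smallest adjusted p of 0.92, 0.85 and 0.85). At an unadjusted p under 0.05 there were 3, 4 and 1 of the 32 member regions, against 4.93%, 5.5% and 5.4% of all shared regions, and no other tool was run on the ranks. The median change at members was -5.48 percentile points at 6h, -0.15 at 12h and 1.48 at 24h, against 0.02, -0.62 and -0.03 for all shared regions. Both later libraries were above both 0h libraries at 6, 8 and 5 member regions at 6h, 12h and 24h (16.3%, 15.9% and 17% of all shared regions were) and below at 6, 2 and 6 (15.7%, 16.9% and 16.4%).

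The regions with an unadjusted p under 0.05 are named here after their values were seen, and none is a call. A region 2273 bp upstream of Il1b (chr2:129373203-129373648), the gene of the main secreted interleukin 1, had ranks of 70.9 and 48.5 in the 12h libraries and 37.9 and 53.9 at 24h, against 17.2 and 1.62 at 0h, with 2.43 and 14.9 at 6h. Every 12h and 24h library was above every 0h and 6h library. The difference was 50.3 ± 14.2 at 12h and 36.4 ± 14.2 at 24h (SE, limma adjusted p = 0.85 at both). A region inside Tnfrsf1b (chr4:145240749-145241293) had ranks of 90.7 and 94.8 at 12h, against 51.6 and 36.2 at 0h (a difference of 48.8 percentile points, limma adjusted p = 0.85), with 72.6 and 36.2 in the 6h libraries and 44.8 and 60.3 in the 24h libraries. A region 6244 bp beyond Ccr3 (chr9:124037687-124038295), the eotaxin receptor of eosinophils, had ranks of 16.0 and 3.93 at 6h and 12.1 and 28.3 at 12h, against 56.1 and 47.6 at 0h, with 56.0 and 51.9 at 24h. It was lower in all 6h and 12h libraries and close to the 0h values at 24h (6h difference -41.9 ± 13.8, SE, limma adjusted p = 0.92).

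Another 3 member regions had an unadjusted p under 0.05 at 1 time, with lower ranks than at 0h. The Cxcr4 promoter had ranks of 0.611 and 4.49 at 6h, against 28.2 and 22.6 at 0h (difference -22.9 ± 8.59, SE, limma adjusted p = 0.92), with 5.31 and 26.5 at 12h and 6.21 and 7.29 at 24h. The region of Il1a at the end of Ckap2l had ranks of 61.3 and 67.4 at 6h, against 96.3 and 80.6 at 0h (difference -24.1 ± 8.43, SE, limma adjusted p = 0.92), and 85.0 to 94.0 at 12h and 24h. A region 114 bp from an end of Osm (chr11:4236324-4237752) had ranks of 9.15 and 11.4 at 12h, against 39.7 and 57.9 at 0h (difference -38.5 ± 14.2, SE, limma adjusted p = 0.85), with 42.2 and 8.83 in the 6h libraries and 16.7 and 30.6 in the 24h libraries. The Cxcr4 and Osm regions were below both 0h libraries in both 24h libraries as well.

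**Figure D5:**
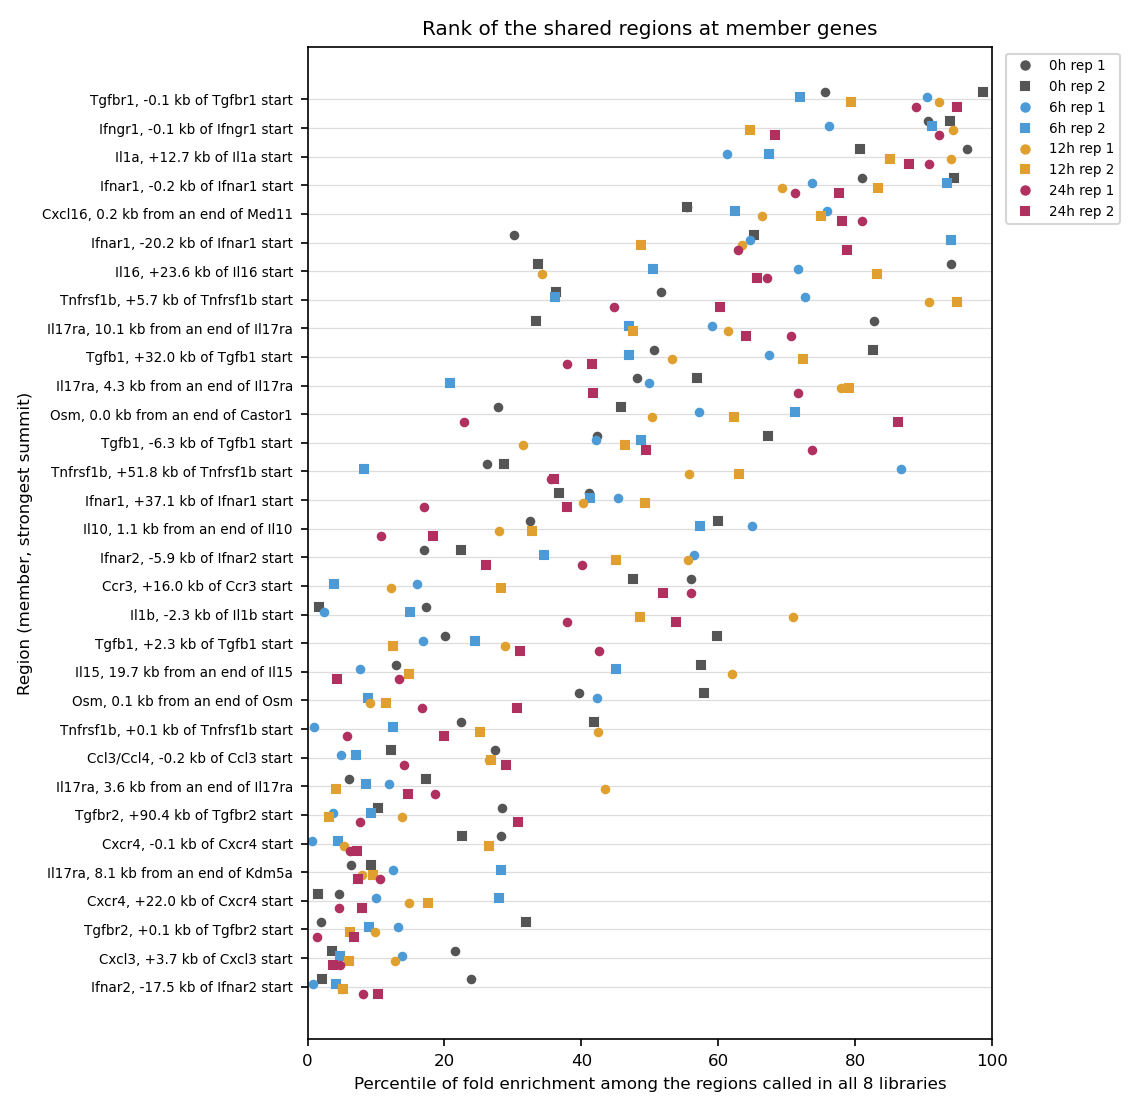
Percentile of fold enrichment among the 9170 regions called in all 8 libraries (x axis) for the 32 shared regions at members (rows, ordered by mean rank), with 1 point per library, coloured by time and shaped by replicate. The Tgfbr1 promoter has the highest mean rank (86.5), and the Il1b region is the row in which the 12h and 24h points stand clear of the 0h and 6h points.

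Other genes of the same families were counted in the same way. Of 89 other chemokine, cytokine and receptor genes, 88 were in the table, 64 had a region and 24 a shared one. Of the 60 whose counts could be tested, 1 had an unadjusted exact permutation p under 0.05, Il1rap, the accessory chain of the interleukin 1 receptor, with 3, 3, 3, 3, 3, 2, 2 and 1 peaks (r = -0.84, p = 0.0238, not passing adjustment over all genes). Genes with a gained region numbered 4, 9 and 3 at 6h, 12h and 24h, and genes with a lost region 4, 3 and 6 (of all genes with a region, 4.76%, 10.1% and 3.06% had a gained one and 5.27%, 3.32% and 9.64% a lost one). At equal length the numbers were 5, 8 and 9 gained and 3, 0 and 2 lost, so the surplus of lost over gained at 24h was not seen on lists of one length. The shares of all genes at equal length are not given here. On the lists as deposited, the genes with a gained region at 24h were Il4ra, Il10rb and Il21r, and those with a lost one included Cxcl10, Ccr2, Il4ra, Il1rap and Ltb. Among the members, 5, 4 and 3 genes had a gained region and 5, 4 and 6 a lost one at the same times, with neighbours counted for the regions they share. Some of the other genes also share called regions with members, such as Il10rb with Ifnar2, Ltb with Tnf and Lta, and Cxcr1 with Cxcr2. The 2 sets of genes are therefore not independent.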

How the data were processed

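ATAC-seq was done on 50000 sorted cells per library with paired-end reads, per the labels' protocols. The submitters' processing notes name BWA, SAMtools, MACS2 and mm10, without versions, settings or filters. The deposited files are narrowPeak lists, 1 for each library, which the authors called separately. In each list the authors give a score (the -log10 q times 10, cut to a whole number), the fold over background at the summit as a ratio, the -log10 p and -log10 q, and the summit's offset. Fold served to rank peaks within a list, -log10 p to cut lists to equal length, and -log10 q for a stricter threshold of 5. Tags at the summit were recovered from fold and -log10 p as whole numbers within 0.001 for 99.8% to 99.9% of peaks.

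Groups and replicates follow the titles. Peaks on 19 autosomes, X and Y were assigned by summit to genes of the RefSeq table (GRCm38.p6), with all 46 members matched by symbol. Gained and lost regions are presence calls without a test. Peak counts were tested against hours by exact permutation (2-sided, all arrangements, Benjamini-Hochberg over all genes tested), and ranks of shared regions with limma 3.58.1 (trend, R 4.3.3). Scripts were tested on simulated data. With 2 libraries per time, precision is set by the spread between them. The members, lists, motifs and tests were chosen with earlier results of these data known. Values in every library are given for members with a changed region, for the 6 with the most peaks and the 6 with the highest mean percentile. Alternatives were equal list length, -log10 q of at least 5, windows of 5 and 50 kb, a cover of 50%, a replicate block and each library left out.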

Additional observations from a re-analysis of the deposited data

How the results depend on the processing

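Counts of gained and lost regions at members depended on the settings, and the cause was not tested. Lost regions at 6h numbered 4, against 2 with a -log10 q of at least 5 and 2 at equal list length. Gained regions at 12h numbered 5, against 3 with a 5 kb window, and lost ones 3, against 1 with each of the stricter q, equal length and 5 kb. Gained regions at 24h numbered 2, against 0 with the stricter q, 4 at equal length, 1 with 5 kb and 1 with a cover of 50%, and lost ones 4, against 2 at equal length and 2 with 5 kb. Leaving out 1 library makes a call rest on fewer libraries and raised every count. Gained regions then numbered 4 to 12 at 6h, 6 to 19 at 12h and 4 to 7 at 24h, and lost ones 6 to 17, 4 to 14 and 8 to 22. Except at equal length, the shares of all regions called under these alternatives are not given here, so the counts show nothing particular to members. Members whose number of peaks followed time (exact permutation) and shared regions at members that differed in rank (limma) numbered 0 at an adjusted p under 0.05 under every alternative run, each library left out included. For peak counts, the few possible arrangements made a result of 0 nearly certain beforehand, so it is no sign of robustness. At an unadjusted p under 0.05, leaving out libraries gave 1 to 4 members, and 2 to 5, 1 to 5 and 0 to 3 regions at 6h, 12h and 24h. Replicate differences showed no correlation between times (-0.037 to 0.011). This cannot show whether libraries of one replicate number come from the same mouse or preparation. With a replicate block, limma called 0 member regions and the test of peak counts 0 members. Calls of gained and lost regions do not use replicate numbers, so the block could not change their counts. Of 69 differences in peak number at 23 named members, 19 moved by more than the replicate SD under an alternative, 7 at equal length, 6 with the stricter q and 6 with 5 kb. A missing peak means only that none was called at this depth, and the summits of most changed regions hold few tags.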

Other observations

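Ifnar2, Il10rb, Ifnar1 and Ifngr2, the receptor genes for type I interferon, interleukin 10 and related cytokines, and interferon gamma, are neighbours on chromosome 16. Il10rb, which is not among the 46 genes, had 1, 2, 2, 2, 4, 3, 2 and 3 peaks in the order used in the report, and its gained region at 24h is the Ifnar2 region that was gained at 12h and 24h, which lies within 20 kb of both genes. Whether the site acts on either gene was not measured. The shared Ifnar2 region 5929 bp upstream of the gene (chr16:91366716-91367413) had ranks of 26.1 to 56.5 in the 6 later libraries, against 17.0 and 22.4 in the 0h libraries. All later libraries were above both 0h libraries, and no difference passed limma's adjusted threshold (12h difference 30.6 ± 15.2, SE, limma adjusted p = 0.85).

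The shared Il10 region (chr1:131025778-131026230), 1074 bp from an end of the gene for an anti-inflammatory cytokine, had ranks of 10.7 and 18.3 at 24h, against 32.5 and 59.9 at 0h. Both 24h values were the lowest of the 8 libraries (difference -31.7 ± 15.5, SE, limma adjusted p = 0.85). Both regions were chosen after their values were seen.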
